A study of Mus musculus with 50 samples.

Results

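Polycomb repressive complex 2 (PRC2) was followed at the level of its mRNAs, through 10 genes chosen by name: the core genes Ezh2, Ezh1, Eed, Suz12, Rbbp4 and Rbbp7 and the accessory genes Jarid2, Aebp2, Mtf2 and Phf19. They are 10 of 19455 genes measured by 3′ end poly(A) RNA-seq in KH2 embryonic stem cells of the mouse (C57BL/6 x 129/Sv background). Triple_KO cells are labelled as knockouts of Ythdf1, Ythdf2 and Ythdf3 together, and Ythdf1_KO, Ythdf2_KO and Ythdf3_KO cells of 1 gene each, against WT cells. Medium with fetal bovine serum and LIF was used for all genotypes, and 48 h after plating on gelatin the cells received 5 µM actinomycin D, which blocks transcription, for 0, 4 or 8 h. Replicates A and B of a genotype had 2 libraries each at 0 and 8 h and 1 at 4 h, 50 libraries in all. The labels do not say whether A and B were separate cultures, or how many clones stood behind a genotype, so p-values measure the spread between these samples, which may be technical.

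PRC2 places methyl groups on lysine 27 of histone H3, a mark of repressed developmental genes. EZH2 or EZH1 carries the catalytic site, which works only together with EED, which binds the finished mark, and SUZ12, the scaffold on which the accessory proteins dock. In embryonic stem cells the complex keeps lineage genes silent, and it is needed for orderly differentiation. YTHDF proteins bind mRNAs that carry N6-methyladenosine and are known for promoting their decay.

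Values are FPM, reads scaled to a common library total with no correction for gene length, so levels are set side by side between samples and never between genes. Library totals were 796921 to 2341410 reads, and 1 read was worth 0.427 to 1.25 FPM. In bulk RNA, fewer cells of a type and less RNA per cell cannot be told apart. The 8 embryonic stem cell markers summed to 2046 to 2115 FPM in Triple_KO and 2464 to 2642 FPM in WT at 0 h. Dppa5a, Tdgf1, Pou5f1 and Esrrb averaged 612, 231, 707 and 197 FPM in Triple_KO and 783, 334, 845 and 248 FPM in WT. For Sox2, Zfp42, Utf1 and Nanog the libraries of Triple_KO and WT overlapped. These genes averaged 128.7, 113.2, 87.9 and 2.58 FPM in Triple_KO and 129.2, 114.0, 95.3 and 2.20 FPM in WT. Also at 0 h, the 5 trophectoderm markers summed to 244 to 267 FPM in Triple_KO and 106 to 119.5 FPM in WT. The 8 fibroblast or feeder markers summed to 196 to 233 FPM in Triple_KO and 108 to 118 FPM in WT. Most of the trophectoderm sum was Krt8 and Krt18, with means of 144.5 and 101.2 FPM in Triple_KO and 75.4 and 34.4 FPM in WT. Cdx2 was also higher, with 2.89 to 5.94 FPM in Triple_KO and 0.589 to 1.40 FPM in WT (means 4.26 and 1.02 FPM). Eomes averaged 3.69 FPM in Triple_KO and 3.78 FPM in WT, and Elf5 was at 0 in both. In the single knockouts the trophectoderm sum was 168 to 181 FPM in Ythdf1_KO, 163 to 180 FPM in Ythdf2_KO and 59.3 to 74.2 FPM in Ythdf3_KO. The fibroblast or feeder sum included Acta2, at 131 FPM in Triple_KO and 73.3 FPM in WT. Col1a1, Col1a2, Thy1 and Col3a1 averaged 38.4, 15.1, 18.9 and 2.20 FPM in Triple_KO and 16.2, 7.58, 9.76 and 0.32 FPM in WT. Postn averaged 5.34 FPM in Triple_KO and 3.96 FPM in WT, with overlapping libraries, and Dcn 0.54 and 0 FPM. Lum was at 0 in both. The 5 primitive endoderm markers summed to 8.30 to 12.4 FPM in Triple_KO and 3.38 to 8.02 FPM in WT at 0 h. Their sum stayed at 12.4 FPM or less in every library at 0 h. The part of these markers in the differences between genotypes was not tested. Reads near the 3′ end do not check the knockouts: at 0 h Ythdf1 averaged 42.5 FPM in Triple_KO and 57.2 FPM in WT, Ythdf2 86.2 FPM in Triple_KO and 51.5 FPM in WT, and Ythdf3 21.5 FPM in Triple_KO and 23.2 FPM in WT (n = 4 libraries each).

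The members differ in how often their mRNAs hold GGACT. This motif, the most common core of the m6A consensus, was searched, as these letters, on the transcript strand of 1 GENCODE M21 transcript per gene (build GRCm38). Within 200 nt of the stop codon it occurred in Eed and Mtf2, 2 of the 10 members, and in 41.5% of the 7565 tested genes with a complete window of that size. The match nearest to the stop codon is shown for the members whose decay is described most closely, with GGACT in capitals and 8 bases on either side.
Eed, 3′ UTR, chr7:89954756-89954776, minus strand: tcctgctcGGACTttactgct
Mtf2, 3′ UTR, chr5:108106943-108106963, plus strand: tgactgtaGGACTgaacgtaa
Jarid2, coding, chr13:44913686-44913706, plus strand: ggtccacaGGACTgtacagca
Ezh2, coding, chr6:47545735-47545755, minus strand: agaagcagGGACTgaaactgg
Suz12 had no match in its whole 4373 nt transcript. Jarid2 had the most, 7 in 5997 nt, or 1.17 per kb against a median of 1.06 per kb over the 8628 tested genes with a transcript model. Jarid2 was also the only member with an internal exon of 400 nt or more (1033 nt), a feature of 17.8% of those genes. Methylation was not measured, and a match says only that the letters are present.

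Detection differed widely among the members. Rbbp7 had 9352 reads over the 50 libraries, Eed 5192, Jarid2 3562, Suz12 2743, Mtf2 2446, Ezh2 1906 and Aebp2 847. Rbbp4 (477 reads) and Ezh1 (402 reads) rested on few reads per library. Phf19 (chr2:34893752-34914353, GRCm38.p6), a Tudor-domain accessory protein, had 24 reads in all and was at 0 in 30 of 50 libraries, with at most 1.82 FPM. It alone missed the filter of 5 FPM in at least 2 replicate means, so 9 of the 10 members were tested.

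Before actinomycin D, limma called the core mRNAs Suz12, Eed and Rbbp4 lower and Rbbp7 higher in Triple_KO cells than in WT cells. By limma's test with Benjamini-Hochberg adjustment over 8697 genes (threshold 0.05), 4 of 9 members passed, where 21.9% of all tested genes passed. Of these 3 were lower (7.65% of all genes) and 1 higher (14.3%). The median change of the 9 members was -0.02 on the log2(FPM + 1) scale, beside 0.07 for all tested genes. DESeq2 called 0 members higher and 2 lower, and a limma fit on all times called Suz12 alone. The Rbbp4 call rested on few reads, and its libraries overlapped between the genotypes.

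Suz12 (chr11:79993106-80034123, GRCm38.p6), the scaffold subunit, had 35.0, 35.4, 36.2 and 37.6 FPM in the 4 Triple_KO libraries, against 58.0, 50.7, 58.9 and 55.2 FPM in WT. The 2 groups were well apart, with 0.654 times as much signal in Triple_KO (log2 change -0.61 ± 0.13 SE, adjusted p = 6.04e-05). This placed Suz12 at percentile 4.4 of all tested genes. The single knockouts lay between, with means of 48.5 ± 1.79 FPM in Ythdf1_KO, 50.8 ± 4.67 FPM in Ythdf2_KO and 50.8 ± 3.55 FPM in Ythdf3_KO (SD, n = 4 libraries each), none of which passed the test.

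Eed (chr7:89954654-89980976), which reads the finished mark and stimulates the enzyme, had 82.2, 102, 100.4 and 96.3 FPM in Triple_KO, against 114, 106, 139 and 114 FPM in WT. All Triple_KO libraries were below all WT libraries (log2 change -0.31 ± 0.09 SE, adjusted p = 0.00588). The call was lost without Triple_KO replicate A (-0.25, adjusted p = 0.117) and without WT replicate B (-0.21, adjusted p = 0.177), and in the fit on all times (adjusted p = 0.303). Over the 12 alternatives its adjusted p ran from 0.000236 to 0.303.

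Rbbp7 (chrX:162760372-162779090), a histone-binding WD-repeat protein shared with deacetylase complexes, had 174, 159, 163 and 177 FPM in Triple_KO, against 152, 114, 151 and 117 FPM in WT. No libraries overlapped, and the log2 change was 0.34 ± 0.08 SE (adjusted p = 0.000273; 0.24 with adjusted p = 0.12 by DESeq2, and adjusted p = 0.0699 in the fit on all times). In WT the libraries of replicate A had 152 and 114 FPM and those of B 151 and 117 FPM. The fit used 1 average per replicate, so its SE and p do not directly measure this spread within replicates. Over its 12 alternatives the adjusted p of Rbbp7 ran from 0.000206 to 0.12. Its paralog Rbbp4 (chr4:129307100-129335370) had 2.45, 4.43, 5.40 and 8.67 FPM in Triple_KO, against 15.4, 6.76, 13.0 and 6.99 FPM in WT. These groups overlapped, and the log2 change of -0.90 ± 0.32 SE (adjusted p = 0.0292) was lost without Triple_KO replicate A (-0.47, adjusted p = 0.489), WT replicate A (-0.86, adjusted p = 0.121) or WT replicate B (-0.95, adjusted p = 0.073). Over the 12 alternatives its adjusted p ran from 0.0136 to 0.489. In WT the Rbbp4 libraries also differed within replicates, with 15.4 and 6.76 FPM in A and 13.0 and 6.99 FPM in B. The Rbbp4 row held the same values as the row of the overlapping gene Sync, so the source of its reads cannot be told apart. Rbbp7 overlaps Txlng, and Ezh2 overlaps F830010H11Rik; strand use was not stated, so their reads are uncertain in the same way.

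Ezh2 (chr6:47530274-47595270), the main methyltransferase of cycling cells, had 28.8, 27.7, 29.7 and 35.2 FPM in Triple_KO, against 37.0, 43.1, 42.4 and 30.8 FPM in WT. The groups overlapped by 1 library each way and the difference did not pass (log2 change -0.32 ± 0.15 SE, adjusted p = 0.11). Ezh1 (chr11:101191115-101226463), the enzyme of resting cells, averaged 8.34 ± 1.01 FPM in Triple_KO and 8.52 ± 1.56 FPM in WT (SD, n = 4 libraries each), with a 95% interval of the log2 change from -0.60 to 0.56.

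Among the accessory genes the 3 log2 changes were above 0 and none passed the test. Jarid2 (chr13:44730774-44921643), a DNA- and nucleosome-binding protein that recruits PRC2, had 84.6, 80.8, 74.5 and 79.5 FPM in Triple_KO, against 74.0, 69.3, 70.6 and 64.3 FPM in WT (log2 change 0.20 ± 0.11 SE, adjusted p = 0.199). Aebp2 (chr6:140622454-140678472), a zinc finger partner of the JARID2-containing form, had 16.6, 18.8, 21.6 and 21.7 FPM in Triple_KO, against 13.6, 15.2, 11.8 and 13.3 FPM in WT (log2 change 0.51 ± 0.23 SE, adjusted p = 0.0929). For both genes every Triple_KO library was above every WT library. Mtf2 (chr5:108065660-108109219), the Polycomb-like protein that binds unmethylated CpG DNA, averaged 53.2 ± 3.66 FPM in Triple_KO and 49.0 ± 4.82 FPM in WT (SD, n = 4 libraries each; log2 change 0.12 ± 0.13 SE).

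**Figure D1:**
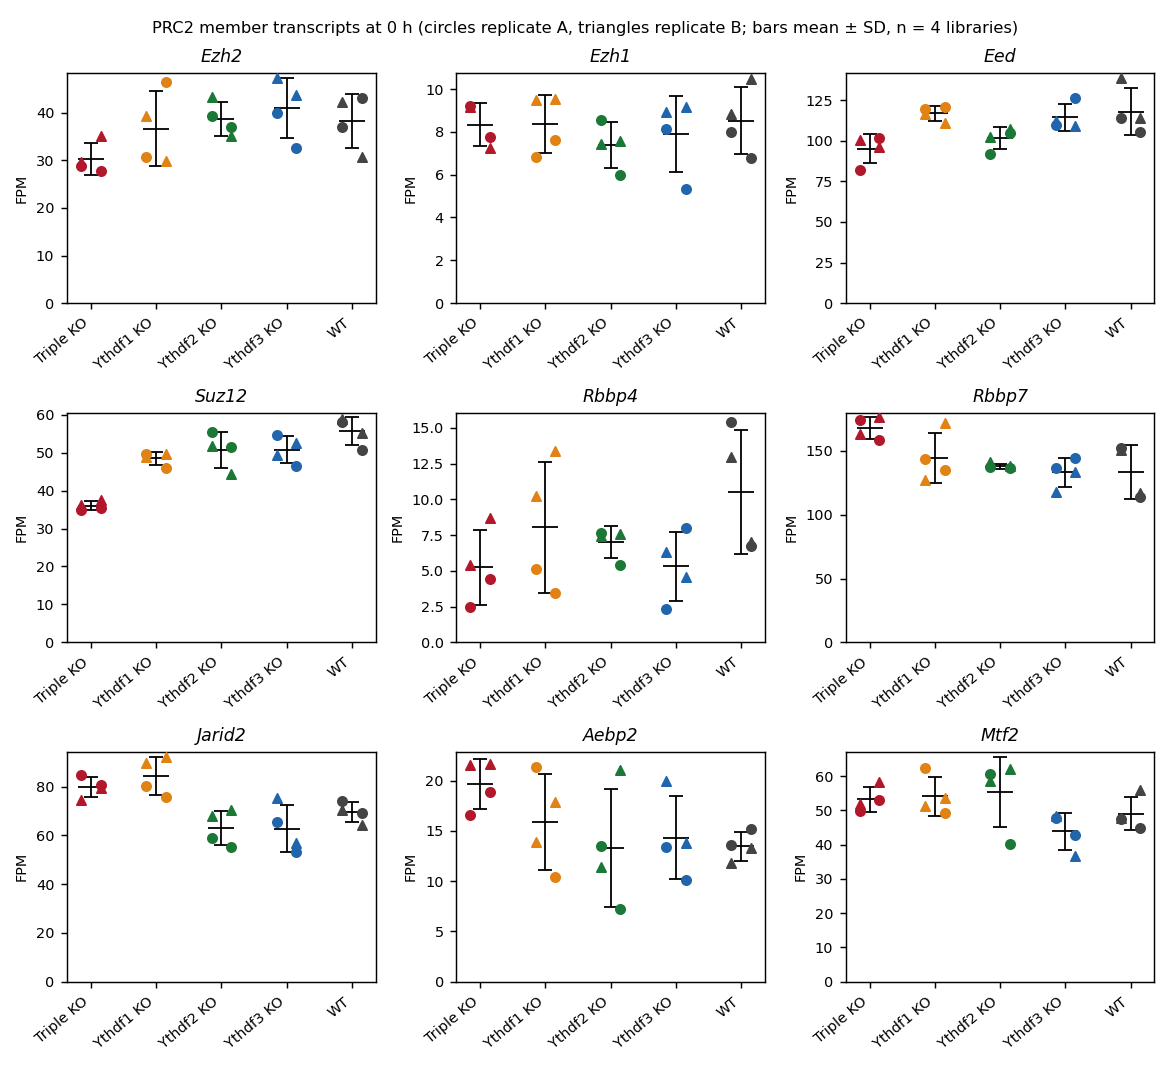
FPM (y axis) of the 9 tested members in each library at 0 h, by genotype (x axis), with circles for replicate A, triangles for replicate B and bars for the mean and SD over 4 libraries. The Triple_KO libraries of Suz12, at 35.0 to 37.6 FPM, lie below all WT libraries, and those of Rbbp7, at 159 to 177 FPM, lie above them.

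In the single knockouts no member passed the limma test at 0 h: 0 of 9 in Ythdf1_KO (2.62% of all tested genes passed), 0 of 9 in Ythdf2_KO (8.2%) and 0 of 9 in Ythdf3_KO (4.46%). The count was also 0 with edgeR and DESeq2 in all 3. Of all 8697 tested genes, 1215 in Ythdf1_KO, 1752 in Ythdf2_KO and 1339 in Ythdf3_KO had an unadjusted p under 0.05. Among the members there was 1 in each. These were Jarid2 in Ythdf1_KO, with a log2 change of 0.28 ± 0.11 SE, Eed in Ythdf2_KO, with -0.21 ± 0.09, and Rbbp4 in Ythdf3_KO, with -0.88 ± 0.32. All comparisons at 0 h share the same WT libraries.

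Once transcription was blocked, most PRC2 mRNAs fell, and 7 of the 9 changed by more than the median gene in WT. In WT cells 8 of 9 members were lower at 8 h than at 0 h, where 55.2% of the 9078 genes tested over all times were lower, and none was higher (1.73% of all genes). The median change of the members was -1.24, beside -0.81 for all tested genes, on the log2(FPM + 1) scale and relative to the library total. The listed transcripts held 33.2 ± 0.266% of the reads at 8 h and 43.3 ± 0.654% at 0 h in WT (SD, n = 4 libraries each), and the count changed with the scaling. TMM scaling put the median of all genes at -0.22 in WT, with 5 members lower. Giving all samples the same median level put it at 0.24, with 3 members lower and 1, Rbbp7, higher. Changes are therefore given beside the median of all genes.

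The accessory genes Mtf2 and Jarid2 were among the fastest. Mtf2 had 11.4, 7.02, 14.3 and 11.4 FPM at 8 h in WT, against 47.5, 44.8, 47.7 and 55.9 FPM at 0 h, a log2 change of -2.08 ± 0.24 SE (adjusted p = 3.29e-11). Jarid2 had 12.6, 19.1, 16.0 and 17.6 FPM at 8 h in WT, against 74.0, 69.3, 70.6 and 64.3 FPM at 0 h, a log2 change of -2.04 ± 0.19 SE (adjusted p = 1.86e-14). Taken as single exponential decay, these correspond to half-lives of 3.84 h (95% interval 3.13 to 4.97 h) and 3.92 h (3.31 to 4.81 h). Neither interval covers the choice of scaling. Mtf2 stood at percentile 9.9 and Jarid2 at percentile 10.8 of all tested genes.

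The core subunits were spread out. Eed had 32.0, 41.1, 35.4 and 29.0 FPM at 8 h in WT, all far below its 0 h libraries, with a log2 change of -1.76 ± 0.15 SE and a half-life of 4.56 h (3.88 to 5.51 h). Suz12 changed by -1.18 ± 0.20 SE (half-life 6.81 h, 5.09 to 10.3 h) and Ezh2 by -1.19 ± 0.24 SE (6.72 h, 4.79 to 11.3 h) in WT. Rbbp7 was the slowest member to pass, at -0.50 ± 0.12 SE (16.2 h, 10.9 to 30.8 h), above the median of all genes. With TMM scaling, median scaling or DESeq2 the Rbbp7 change in WT was above 0, where no half-life is defined. None of the half-life intervals covers this choice of scaling. Rbbp4 did not pass, at -0.04 ± 0.49 SE.

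The remaining pair had few reads. Aebp2 averaged 13.5, 11.1 and 5.67 FPM at 0, 4 and 8 h in WT, and its 8 h libraries ran from 2.28 to 10.03 FPM. Ezh1 averaged 8.52, 2.06 and 2.04 FPM at 0, 4 and 8 h in WT, and was at 0 in 1 of the 4 libraries at 8 h. Both were lower at 8 h than at 0 h, with log2 changes of -1.24 ± 0.35 SE and -2.03 ± 0.47 SE.

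**Figure D2:**
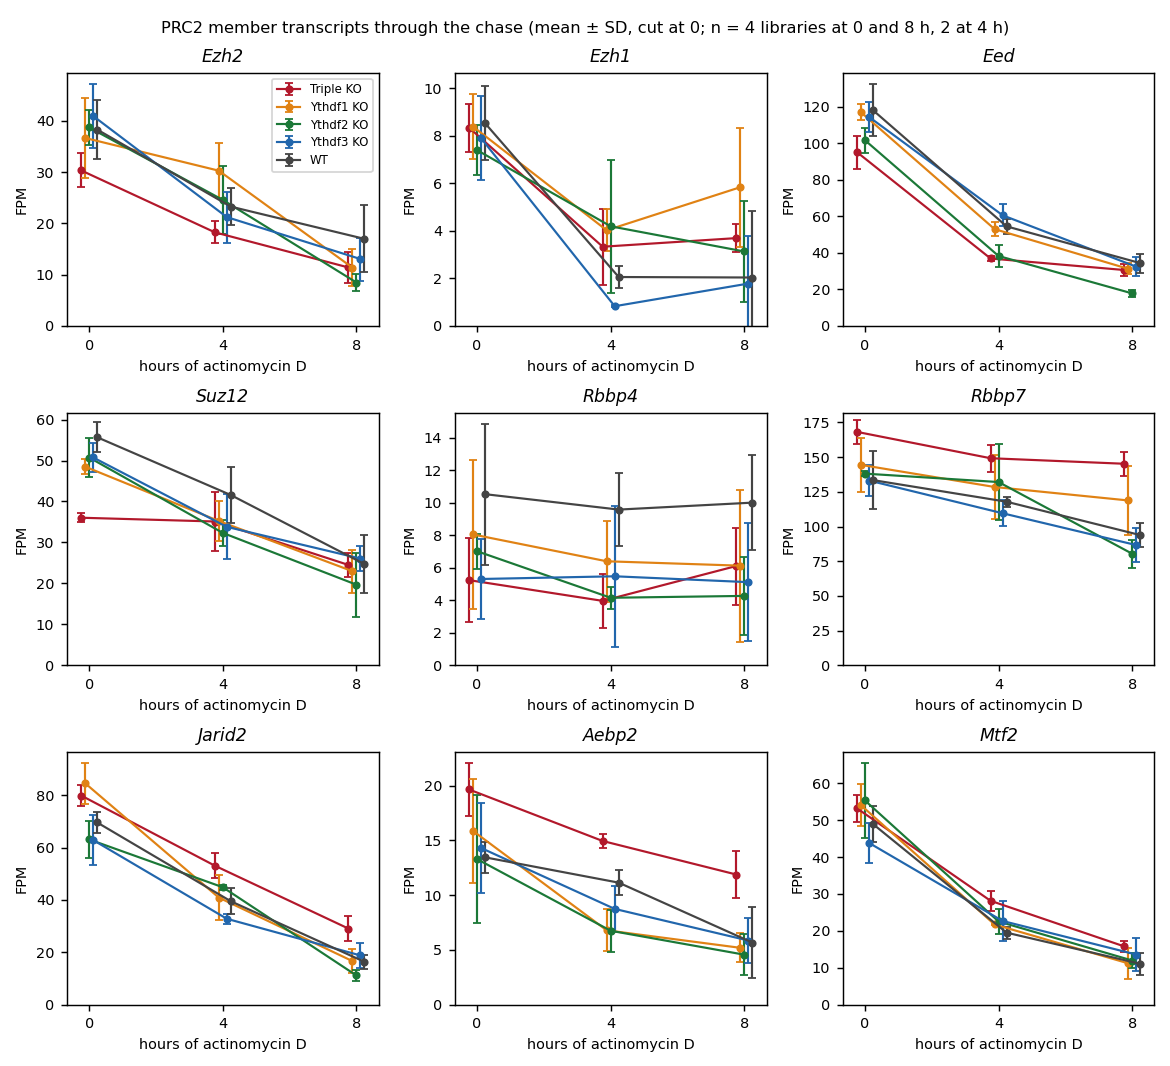
Mean FPM (y axis) of the 9 tested members at 0, 4 and 8 h of actinomycin D (x axis), 1 line per genotype, with bars for the SD over 4 libraries at 0 and 8 h and 2 at 4 h. Eed, Jarid2 and Mtf2 drop steeply in all genotypes while Rbbp7 stays highest in Triple_KO, at 145 FPM at 8 h against 93.8 FPM in WT.

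In the knockouts, each measured within its own genotype, members lower at 8 h than at 0 h numbered 5 of 9 in Triple_KO (25.8% of all tested genes lower), 7 of 9 in Ythdf1_KO (54.5%), 8 of 9 in Ythdf2_KO (62.6%) and 8 of 9 in Ythdf3_KO (59.6%). The 5 in Triple_KO were Eed, Mtf2, Jarid2, Ezh2 and Suz12. Suz12, at -0.55 ± 0.20 SE (adjusted p = 0.0308), missed the threshold without replicate A (-0.58, adjusted p = 0.203) or B (-0.51, adjusted p = 0.268) of Triple_KO. Over its 10 alternatives the adjusted p ran from 0.00456 to 0.87. No member was higher at 8 h in these genotypes by limma, where 3.45% of all genes were higher in Triple_KO, 1.38% in Ythdf1_KO, 0.595% in Ythdf2_KO and 0.661% in Ythdf3_KO. The medians of the 9 members were -0.995 in Triple_KO, where the median of all tested genes was -0.39, and -1.43 in Ythdf1_KO, where it was -0.77. They were -1.38 in Ythdf2_KO, against -0.91 for all genes, and -1.61 in Ythdf3_KO, against -0.83.

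**Figure D3:**
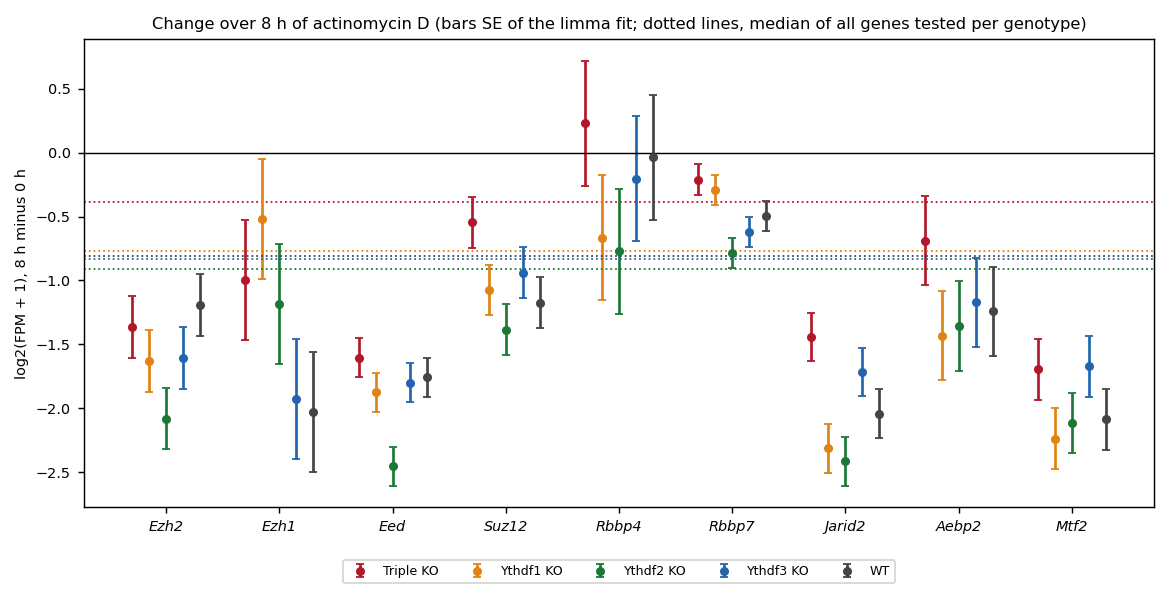
Log2(FPM + 1) at 8 h minus 0 h (y axis) for the 9 tested members (x axis) in each genotype, with bars for the SE of the limma fit and dotted lines for the median of all tested genes in each genotype. Triple_KO has the highest dotted line, at -0.39, and the Suz12 point of Triple_KO, at -0.55, lies above those of the other 4 genotypes.

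Whether decay itself differed from WT was tested as the difference between the 8 h and 0 h changes. No member passed limma's test in any knockout: 0 of 9 in Triple_KO (7.24% of all tested genes passed), 0 of 9 in Ythdf1_KO (0.0441%), 0 of 9 in Ythdf2_KO (0.176%) and 0 of 9 in Ythdf3_KO (0.33%). edgeR and DESeq2 also gave 0 in each. Members at an unadjusted p under 0.05 numbered 2 in Triple_KO, 1 in Ythdf1_KO, 2 in Ythdf2_KO and 0 in Ythdf3_KO. Of all 9078 tested genes, 1782, 470, 647 and 559 were under it, in the same order. In Triple_KO 8 of 9 differences were above 0 with a median of 0.39, beside 0.37 for all tested genes. Above 0 were 5 of 9 with TMM scaling, 4 of 9 with median scaling and 2 of the 6 for which DESeq2 gave an adjusted p. These comparisons share the WT libraries.

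Suz12 and Jarid2 had the 2 lowest unadjusted p-values in Triple_KO. Suz12 had 24.9, 23.8, 21.0 and 28.3 FPM at 8 h in Triple_KO, against 35.4, 22.1, 20.3 and 21.1 FPM in WT. The groups overlapped at 8 h although they had been apart at 0 h: the mean at 8 h was 68.0% of the 0 h mean in Triple_KO and 44.4% in WT. The difference in decay was 0.63 ± 0.28 SE on the log2 scale (unadjusted p = 0.0283, adjusted p = 0.183). Jarid2 had 33.0, 22.4, 32.5 and 28.3 FPM at 8 h in Triple_KO, all above the 12.6, 19.1, 16.0 and 17.6 FPM in WT. Its difference in decay was 0.60 ± 0.27 SE (unadjusted p = 0.0285, adjusted p = 0.184).

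Set against the mean of the 3 single knockouts, Jarid2 decay was slower in Triple_KO, by 0.70 ± 0.22 SE (adjusted p = 0.0167), and it was the only member called by limma (1 of 9, where 17% of all tested genes were called). At 8 h Jarid2 averaged 29.0 ± 4.92 FPM in Triple_KO, against 16.6 ± 4.70 FPM in Ythdf1_KO, 11.1 ± 2.20 FPM in Ythdf2_KO and 18.8 ± 4.88 FPM in Ythdf3_KO (SD, n = 4 libraries each). All 9 members were above 0, with a median of 0.44 beside 0.42 for all tested genes, but 6 of 9 with TMM scaling and 4 of 9 with median scaling. The Jarid2 call was lost with TMM scaling (0.35, adjusted p = 0.667) and without either Triple_KO replicate (0.83, adjusted p = 0.0938 without A and 0.58, adjusted p = 0.292 without B). Over the 16 alternatives its adjusted p ran from 0.000975 by edgeR to 0.864 with median scaling.

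In Ythdf2_KO the 2 lowest unadjusted p-values belonged to core genes, and neither passed after adjustment. Eed had 18.9, 15.5, 19.9 and 17.1 FPM at 8 h in Ythdf2_KO, against 32.0, 41.1, 35.4 and 29.0 FPM in WT, with no overlap. The difference in decay was -0.70 ± 0.22 SE (unadjusted p = 0.00192, adjusted p = 0.233). Ezh2 had 8.21, 10.9, 7.45 and 7.31 FPM at 8 h in Ythdf2_KO, against 24.0, 11.04, 11.8 and 21.1 FPM in WT. The highest Ythdf2_KO library was just below the lowest of WT. Its difference was -0.89 ± 0.34 SE (unadjusted p = 0.0112, adjusted p = 0.556). At 0 h both genes had overlapped with WT. The median difference in decay between Ythdf2_KO and WT was -0.13 for all tested genes and -0.29 for the 9 members, of which 1 was above 0. In Ythdf1_KO the member with the lowest p-value was Ezh1, at 1.51 ± 0.66 SE (adjusted p = 0.901), on few reads.

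Over the 15 group means the genes with the most similar pattern were found by Pearson's r of log2(FPM + 1). For Ezh2 they were Ubap2l (r = 0.972) and Vapa (0.971), for Eed Slc38a1 (0.985) and Ccnb1 (0.979), for Suz12 Lin37 (0.977) and Tmem39a (0.977), and for Jarid2 Naa40 (0.984) and Med6 (0.983). The points share libraries and the common fall over time, so the values are descriptions.

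Outside the 10 members, the PRC2 partner Epop, which joins the complex to Elongin BC in embryonic stem cells, had the lowest adjusted p for a difference in decay among the related lists. Epop had 353, 354, 355 and 303 FPM at 8 h in Triple_KO, against 115, 145, 99.6 and 103 FPM in WT. At 0 h it had 439.8, 435, 473 and 495 FPM in Triple_KO, against 385, 388, 412 and 384 FPM in WT. All Triple_KO libraries were above all WT libraries at both times. The half-life was 18.5 h (95% interval 13.3 to 30.6 h) in Triple_KO and 4.53 h (4.13 to 5.01 h) in WT. With median scaling the Epop change in Triple_KO was above 0, where no half-life is defined. The difference in decay was 1.34 ± 0.12 SE (adjusted p = 2.04e-13) against WT and 1.37 ± 0.10 SE (adjusted p = 1.1e-17) against the mean of the single knockouts, and it passed under every alternative run, at 0.88 or more against WT. The half-life in the single knockouts was 4.87 h in Ythdf1_KO, 4.27 h in Ythdf2_KO and 4.21 h in Ythdf3_KO.

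Among the other PRC2 partners (7 genes, 4 tested), 2 were higher and 0 lower in Triple_KO at 0 h by limma and 1 higher by DESeq2, where 14.3% of all tested genes were higher and 7.65% lower by limma. Epop was higher by 0.23 ± 0.05 SE, a call lost without Triple_KO replicate B (0.16, adjusted p = 0.104) and with DESeq2 (adjusted p = 0.126, the highest of its 12 alternatives), and Eloc, which encodes Elongin C, by 0.80 ± 0.13 SE, with 61.6 ± 5.54 FPM in Triple_KO and 34.9 ± 0.649 FPM in WT (SD, n = 4 libraries each). Eloc was also higher in Ythdf2_KO, by 0.50 ± 0.13 SE, and Epop lower in Ythdf3_KO, at -0.18 ± 0.05 SE. DESeq2 called neither. The Eloc call was also lost without Ythdf2_KO replicate A (adjusted p = 0.116) and with no filter or the fit on all times (0.191, the highest of 12 alternatives). The Epop call in Ythdf3_KO was lost under 7 of its 12 alternatives, among them without Ythdf3_KO replicate A (adjusted p = 0.496), without WT replicate B (0.126) and in the fit on all times (0.766, the highest). For the decay difference between Triple_KO and WT, 1 of 4 passed, Epop, where 7.24% of all tested genes passed.

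PRC1, which ubiquitylates histone H2A and whose CBX subunits read the PRC2 mark, was counted over 17 tested genes of 24 measured. At 0 h in Triple_KO 1 was higher (14.3% of all tested genes) and 2 lower (7.65%) by limma, and 0 higher and 1 lower by DESeq2, with a median of 0.17 beside 0.07 for all genes. Cbx7, the main CBX reader of embryonic stem cells, averaged 44.4 ± 6.10 FPM in Triple_KO and 90.9 ± 8.28 FPM in WT (SD, n = 4 libraries each), a log2 change of -1.02 ± 0.11 SE (adjusted p = 6.02e-17). Rnf2, the main E3 ligase, fell by 0.46 ± 0.14 SE, a call lost without Triple_KO replicate A (adjusted p = 0.341, the highest of 12 alternatives) or WT replicate B (0.161), and with no filter, DESeq2 or the fit on all times. Phc2, a polymerising subunit, rose by 0.57 ± 0.21 SE, a call lost without either Triple_KO replicate or WT replicate A (adjusted p = 0.121 to 0.201), and under 5 further alternatives, with a highest adjusted p of 0.515 in the fit on all times. None of the 17 passed at 0 h in any single knockout by limma, edgeR or DESeq2. At an unadjusted p under 0.05 there were 2 in Ythdf1_KO, 4 in Ythdf2_KO and 1 in Ythdf3_KO. Of all 8697 tested genes, 1215, 1752 and 1339 were under it, in the same order.

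In the chase, 9 of 17 PRC1 genes were lower at 8 h than at 0 h in Triple_KO (25.8% of all tested genes) and 15 of 17 in WT (55.2%) by limma, and 7 in Triple_KO and 8 in WT by DESeq2. Decay was slower in Triple_KO than in WT for 3 of 17, where 7.24% of all tested genes differed, Rybp (0.90 ± 0.30 SE), Cbx7 (0.85 ± 0.22) and Phc1 (0.62 ± 0.20), with a median of 0.65 beside 0.37 for all tested genes. Cbx7 averaged 38.3 FPM at 8 h in Triple_KO, against 43.2 FPM in WT, so its levels were near each other at the end of the chase and apart at its start. All 3 calls were lost with TMM scaling (adjusted p = 0.508 for Rybp, 0.339 for Cbx7 and 0.702 for Phc1), and DESeq2 called 0 of the 17 and edgeR 5. With median scaling the adjusted p was highest, at 0.667 for Rybp, 0.539 for Cbx7 and 0.872 for Phc1. Rybp was also lost on leaving out any replicate of Triple_KO or WT (adjusted p = 0.138 to 0.326) and with a replicate block (0.0518), Cbx7 on leaving out any but WT replicate B (0.0504 to 0.184), and Phc1 on leaving out any but WT replicate A (0.172 to 0.306). Against the mean of the single knockouts limma called 4 of 17, all slower, including the same 3, where 17% of all tested genes were called. In that comparison edgeR called 5 slower and 1 faster and DESeq2 called 0. Without Triple_KO replicate A or B the calls of Rybp (adjusted p = 0.156 and 0.255), Cbx7 (0.0977 and 0.308) and Phc1 (0.152 and 0.0632) were lost there, as they were with TMM scaling (0.654 to 0.838), and Cbx7 also without Ythdf3_KO replicate A (0.056).

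The enzymes that act against Polycomb marks, the H3K27 demethylases and the PR-DUB genes (6 genes, 5 tested), had 0 of 5 passing at 0 h in Triple_KO by limma, edgeR or DESeq2. At an unadjusted p under 0.05 there was 1, beside 2778 of all 8697 tested genes. By limma all 5 were lower at 8 h in WT, where 55.2% of all tested genes were lower, and by DESeq2 2 of 5. The log2 changes were -3.10 ± 0.47 SE for Asxl1, a PR-DUB cofactor, and -2.24 ± 0.51 SE for Kdm6a, a demethylase of the mark (-1.19, adjusted p = 0.0524 with median scaling). Decay differed from WT in none of the 5 in Triple_KO by limma, edgeR or DESeq2. In that comparison 1 was at an unadjusted p under 0.05, beside 1782 of all 9078 tested genes.

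Genes of other complexes that contain RBBP4 or RBBP7 (18 genes, 16 tested at 0 h) included 2 higher (14.3% of all tested genes) and 1 lower (7.65%) in Triple_KO at 0 h by limma, and 1 higher and 1 lower by DESeq2. Sin3b, a deacetylase scaffold, was higher by 0.75 ± 0.08 SE and Mbd3, of the NuRD complex, by 0.27 ± 0.09 SE, while Hdac2, a deacetylase, fell by 0.29 ± 0.10 SE. Mbd3 missed the threshold without Triple_KO replicate A or either WT replicate (adjusted p = 0.0591 to 0.234) and with TMM or median scaling, DESeq2 (0.306) or the fit on all times, and Hdac2 without either Triple_KO replicate or WT replicate B (0.0668 to 0.149) and in the fit on all times (0.326). For decay against WT 1 of 17 was called in Triple_KO by limma, where 7.24% of all tested genes were called, with 3 by edgeR and 0 by DESeq2. It was Chaf1b of the CAF-1 histone chaperone, at 1.16 ± 0.31 SE, which was lost without either Triple_KO replicate or WT replicate B (adjusted p = 0.0599 to 0.175) and under 5 further alternatives, with a highest adjusted p of 0.31 with median scaling. Against the mean of the single knockouts limma called 5 of 17, all slower, where 17% of all tested genes were called, while edgeR called 8 slower and DESeq2 1 faster. Among the 5 were Chaf1b (1.01 ± 0.25 SE), Sap30 (0.99 ± 0.26) and Mbd3 (0.74 ± 0.15). Without Triple_KO replicate A, Chaf1b (adjusted p = 0.127) and Sap30 (0.0574) were lost, and Sap30 also without replicate B (0.14). All 3 were lost with TMM scaling (adjusted p = 0.252 for Chaf1b, 0.272 for Sap30 and 0.288 for Mbd3), median scaling (0.443, 0.493 and 0.623) and DESeq2 (0.154, 0.261 and 0.213).

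Of 30 measured Polycomb target genes, 6 reached the filter. Of these 6 at 0 h in Triple_KO, 1 was higher (14.3% of all tested genes) and 2 were lower (7.65%). Igf2, a growth factor, averaged 33.8 ± 2.11 FPM in Triple_KO and 6.22 ± 1.87 FPM in WT (SD, n = 4 libraries each), a log2 change of 2.31 ± 0.22 SE. Bmp4, a signalling ligand, fell by 1.18 ± 0.21 SE and Tbx3, a transcription factor also used by embryonic stem cells, by 0.44 ± 0.08 SE. Both calls were lost in the fit on all times (adjusted p = 0.0881 for Bmp4 and 0.184 for Tbx3) and under none of the other 11 alternatives. Igf2 was also higher in Ythdf1_KO, by 1.70 ± 0.22 SE, and in Ythdf2_KO, by 1.90 ± 0.22 SE. By limma 1 of the 6 was higher and 0 lower in Ythdf1_KO, where 2.62% of all tested genes passed. In Ythdf2_KO 1 was higher and 3 were lower (8.2%), and 2 were lower by edgeR or DESeq2. Those lower by limma included Bmp4 (-0.95 ± 0.21 SE, adjusted p = 0.000267) and Cdkn2a (-0.54 ± 0.18 SE, adjusted p = 0.0477), the latter close to the threshold. When leaving out 1 replicate, the change ran from -1.25 to -0.66 for Bmp4 and from -0.75 to -0.33 for Cdkn2a. In Ythdf3_KO 0 of 6 passed by limma (4.46%), and 1 was lower by edgeR. The histone mark itself was not measured.

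**Figure D4:**
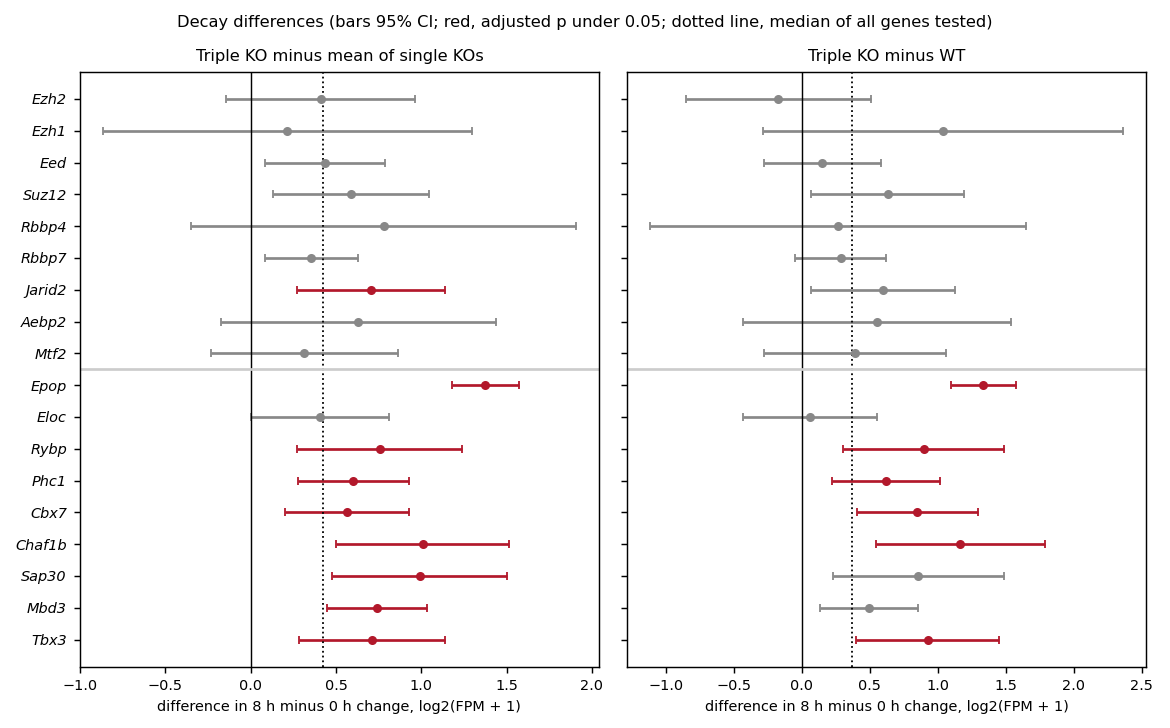
Difference in the 8 h minus 0 h change, in log2(FPM + 1) (x axis), between Triple_KO and the mean of the single knockouts (left) and between Triple_KO and WT (right), for the 9 tested members (above the line) and named genes of related lists (below it). Bars are 95% intervals, red marks an adjusted p under 0.05 and the dotted line is the median of all tested genes. Epop stands at 1.37 and 1.34, while the members lie around the dotted lines at 0.42 and 0.37.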

How the data were processed

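The table deposited by the authors held FPM, the same unit as RPM, per RefSeq transcript. CASAVA 1.8.2, Bowtie2 and mm10 are named per the submitters' processing notes; counting, strand use and multiple matches were not stated. Recovered read counts were whole, within 0.1 read, for 100% of values. Of 22338 transcripts, 21729 were named through RefSeq and 120 through GENCODE, 2169 identical repeats were dropped and distinct rows summed. Duplicate libraries were averaged as log2(FPM + 1). limma 3.58.1 (R 4.3.3) was fitted to 10 replicate means at 0 h and 30 over all times, for genes at 5 FPM or more in 2 replicate means. edgeR 4.0.16 and DESeq2 1.42.0 on recovered reads were alternatives. Only limma's fit at 0 h was tested on simulated data, with each library drawn independently. Members and lists were chosen with earlier results of these data known. All members are named, with up to 3 passing genes of largest change per other list and comparison, and the 2 genes most alike in pattern to Ezh2, Eed, Suz12 and Jarid2. Half-lives are 8 h divided by the log2 fall, relative to the library total, and their intervals do not cover the choice of scaling.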

Additional observations from a re-analysis of the deposited data

Results flagged for a closer look

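Over 90 groups of 4 libraries of the 9 tested members, 3 libraries stood far from the others of their group by Dixon's test, which chance alone gives in about 1 of 20 groups. These were Mtf2 at 40.1 FPM in Ythdf2_KO at 0 h (replicate A), Rbbp4 at 5.39 FPM in Ythdf2_KO at 0 h (replicate A) and Suz12 at 35.4 FPM in WT at 8 h (replicate A).

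By limma's test of the difference itself, decay differed between Triple_KO and another genotype for these genes, on the log2 scale. Against the mean of the single knockouts Jarid2 differed by 0.70, Epop by 1.37, Cbx7 by 0.57, Phc1 by 0.60, Rybp by 0.76, Chaf1b by 1.01, Sap30 by 0.99, Mbd3 by 0.74 and Tbx3 by 0.71. Against WT Epop differed by 1.34, Cbx7 by 0.85, Phc1 by 0.62, Rybp by 0.90, Chaf1b by 1.16 and Tbx3 by 0.92. Of all tested genes 17% were called against the single knockouts, with a median difference of 0.42. Against WT 7.24% were called, with a median of 0.37. With TMM scaling the calls of Jarid2, Cbx7, Phc1, Rybp, Chaf1b, Sap30 and Mbd3 against the single knockouts were lost. Those of Cbx7, Phc1 and Rybp against WT were lost with it too. DESeq2 called Epop alone among the genes listed here in either comparison. Tbx3 missed the threshold against WT without any 1 replicate of Triple_KO or WT (adjusted p = 0.0809 to 0.238) and against the single knockouts without Triple_KO replicate A (0.0825) or B (0.251), with a highest adjusted p of 0.543 against WT and 0.852 against the single knockouts, both with median scaling. The listed transcripts held 41.1 ± 1.48% of the reads in Triple_KO and 33.2 ± 0.266% in WT at 8 h (SD, n = 4 libraries each), and the part of this share in the differences was not tested.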

How the results depend on the processing

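Values are relative to library totals, and few reads limit Rbbp4, Ezh1 and Aebp2. Members called in Triple_KO at 0 h numbered 4, but 2 with DESeq2, 1 (Suz12) in the fit on all times, and 2 to 4 when leaving out 1 replicate (2 without Triple_KO replicate A and 2 without WT replicate B). Ezh2 joined them with median scaling (-0.41, adjusted p = 0.0307). For 8 h against 0 h, Triple_KO had 5 members called, but 8 with edgeR. Ythdf2_KO had 8, but 5 with TMM or median scaling and 4 with DESeq2. Ythdf3_KO had 8, but 5 with TMM and 4 with median scaling or DESeq2. WT had 8, but 5 with TMM, 4 with median scaling and 3 with DESeq2. For decay against the single knockouts 1 was called, but 0 with TMM, median scaling, DESeq2 or the slope over 0, 4 and 8 h, 4 with edgeR and 0 to 3 when leaving out 1 replicate.

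Among member values called before or after the change, signs changed for 8 h against 0 h, in 7 of 45. Counting values that were never called, some alternative changed the sign of 13 of 45 values there, 11 of 36 at 0 h and 23 of 45 differences in decay. Rbbp7 was at 0.39 in Triple_KO with median scaling. With TMM, median scaling and DESeq2 it was at 0.34, 0.70 and 0.43 in Ythdf1_KO, at 0.0040, 0.40 and 0.12 in Ythdf2_KO, at 0.089, 0.46 and 0.20 in Ythdf3_KO and at 0.18, 0.56 and 0.24 in WT. With median scaling Suz12 was at 0.055 in Triple_KO and 0.14 in Ythdf3_KO, Epop at 0.17 in Triple_KO and Phf1 at 0.16 in WT. The cause was not tested.

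The replicate letters did not pair samples (r of deviations -0.014 to 0.020), and with a replicate block the members called stayed at 4 in Triple_KO at 0 h and 1 against the single knockouts. All genes called at 0 h numbered 1906 in Triple_KO, 228 in Ythdf1_KO, 713 in Ythdf2_KO and 388 in Ythdf3_KO, and 557, 20, 138 and 59 in the fit on all times. For 8 h against 0 h they numbered 2654 in Triple_KO (1791 by the slope, 4057 by edgeR), and by DESeq2 2968 instead of 5075 in Ythdf1_KO, 3454 instead of 5733 in Ythdf2_KO, 3336 instead of 5468 in Ythdf3_KO and 3429 instead of 5164 in WT. For decay against WT they numbered 657 in Triple_KO (145 by TMM scaling, 1292 by edgeR), 4 in Ythdf1_KO (0 to 18), 16 in Ythdf2_KO (0 to 32) and 30 in Ythdf3_KO (0 to 74), and against the single knockouts 1545 (156 by TMM scaling, 2911 by edgeR). When leaving out 1 replicate, with the lone replicate taken to vary like the others, the 0 h counts were 1090 to 1510 in Triple_KO (1090 without its replicate A and 1142 without B), 105 to 218 in Ythdf1_KO, 350 to 553 in Ythdf2_KO and 173 to 348 in Ythdf3_KO. Those of 8 h against 0 h were 1007 to 1074 in Triple_KO, 3334 to 3390 in Ythdf1_KO, 4035 to 4042 in Ythdf2_KO, 3793 to 3802 in Ythdf3_KO and 3565 to 3665 in WT. Those of decay against WT were 186 to 423 in Triple_KO, 0 to 2 in Ythdf1_KO, 0 to 2 in Ythdf2_KO and 6 to 14 in Ythdf3_KO, and against the single knockouts 503 without Triple_KO replicate A, 538 without B and 1380 to 1513 without a replicate of a single knockout.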
